A study of Mus musculus with 12 samples.

Results

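The response of the ESR1KO oviduct to pregnant mare serum gonadotropin (PMSG) was measured by comparing 3 arrays of oviducts collected 48 h after PMSG with 3 arrays of untreated ESR1KO oviducts, out of 12 arrays in the series. All mice were on a C57BL/6 background and 23 days old at the start. The ESR1KO mice carried 2 deleted copies of the estrogen receptor alpha gene (Esr1), and the groups called WT were sibling controls with 1 floxed and 1 deleted copy (ESR1flox/-). Mice of either genotype could carry Zp3Cre, a recombinase driven by an oocyte promoter. The untreated groups were taken at 0 h, and the PMSG-treated groups received 5 IU PMSG and were taken 48 h later. Treated mice were therefore also older, so that the effects of age and of PMSG cannot be told apart. Each array held RNA of whole oviducts pooled from 3 to 4 mice, and replicates used different mice.

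PMSG is a gonadotropin with mainly follicle-stimulating activity. It drives ovarian follicles to grow and to secrete estradiol, and estradiol acts on the oviduct through ESR1, a receptor that binds DNA and changes transcription. An ESR1-null oviduct is still exposed to ovarian hormones, which can act through other receptors such as those for androgens and progesterone, and through ESR2 and GPER1. The oviduct itself holds ciliated and secretory epithelium, stroma, smooth muscle and blood vessels. In whole-oviduct RNA, fewer cells of a type and less RNA per cell cannot be told apart.

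The 3 untreated ESR1KO columns of the deposited file are in the order of its probe set names, whereas the remaining 9 columns are in some other common order. A probe set could be compared between untreated and PMSG-treated ESR1KO only where the supplementary gene table of the study located both of its rows. This held for 1997 of the probe sets on the array, of which 1840 carried 1 gene symbol. These rows carry the fold changes of the study by construction. They were listed there because the 4 groups differed (the largest overall p of the located rows, recomputed without moderation, was 0.00998), and the part of the list held here runs alphabetically, under the symbols of the time, to Slc27a2. Shares among them do not describe the whole array, and a gene that was not located is not shown to be unchanged. Values are log2 expression signals, in which a difference of 1 is 2-fold, and a gene is called near background in a group whose mean signal is below 4.

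The targeted gene was described first. In the located Esr1 probe set, the signal was 10.42, 12.13 and 11.05 in untreated ESR1KO replicates 1 to 3. It was 10.11, 10.62 and 10.56 in PMSG-treated ESR1KO, against 12.94, 12.92 and 13.05 in WT and 12.62, 12.82 and 12.21 in PMSG-treated WT. All ESR1KO arrays were below all WT arrays of both groups. The array labelled ESR1KO replicate 2, at 12.13, was the nearest to WT and lay just below the lowest PMSG-treated WT array, at 12.21. A further pair of Esr1 probe sets could be read in the untreated ESR1KO columns, at 3.72, 6.13 and 3.67 and at 10.28, 11.21 and 9.26. Replicate 2 was again the highest in both. Whether these probes lie within the deleted part is not given in the sources used here, so that they check the deletion only in part.

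The array labelled ESR1KO replicate 2 was also displaced toward WT at other genes. Of 690 located probe sets whose WT mean lay at least 2-fold from the mean of the other 2 untreated ESR1KO arrays, replicate 2 was displaced toward WT in 93.3%, by a median of 26.4% of the distance. The same measure gave 46.4% of 586 probe sets for replicate 1 and 38.6% of 596 for replicate 3. By the number of rows at least 2-fold from both others, however, replicate 2 departed least, with 99 above and 58 below, against 585 and 693 for replicate 1 and 288 and 955 for replicate 3. Among named probe sets of the untreated columns, replicate 2 exceeded both others most at Tshr (2.82, 7.90 and 2.98), Cyp26a1, an enzyme that degrades retinoic acid (3.52, 7.81 and 3.37), and Hpgds, a prostaglandin D synthase (4.38, 8.38 and 4.21). It was lowest relative to both others at Ccn1 (9.51, 3.30 and 8.55), and the immediate early gene Fos was also lower in it (10.47, 8.52 and 11.07). The counts of genes past the thresholds and of interactions, given below, were also computed without each of the 3 arrays.

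Replicate 3 of the untreated ESR1KO oviducts differed in another way. All 8 smooth muscle markers were lowest in it, as were 7 of 8 endothelial markers and 6 of 8 stromal markers, whereas 7 of 8 secretory markers were highest in it. The median endothelial marker signal was 6.71, 6.64 and 5.67 in replicates 1 to 3, and the median secretory marker signal 11.88, 12.20 and 12.82. Markers of the labelled tissue were present, with Ovgp1, the oviductal glycoprotein, at 15.90, 15.97 and 15.95. All 8 oocyte markers and all 7 lymphocyte markers on the array were near background, as were 4 of 8 ovarian markers (Amh, Fshr, Cyp11a1 and Hsd3b1). The other 4 ovarian markers were above it, with Inha at 7.83 to 8.22, Foxl2 at 7.80 to 8.91, Inhba at 6.66 to 7.30 and Star at 4.70 to 5.67. Whether ovarian cells were present was not tested.

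**Figure D1:**
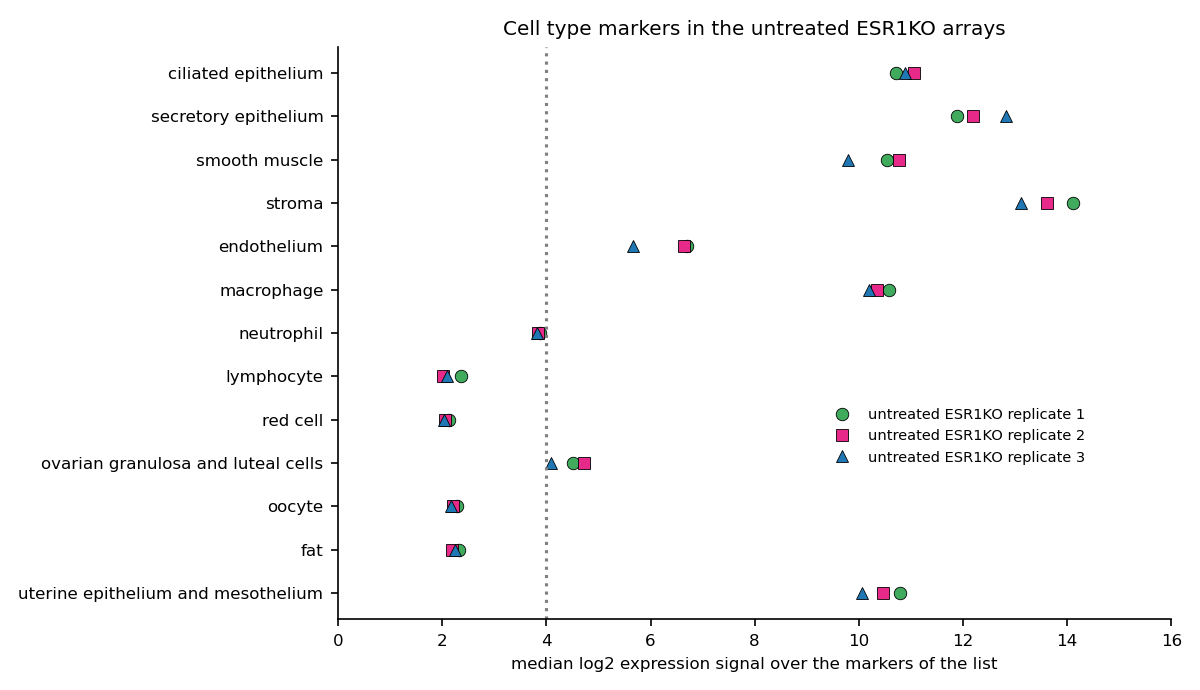
Median log2 expression signal (x axis) over the markers of each cell type list (rows) in the 3 untreated ESR1KO arrays, with 1 symbol per array and the near-background limit of 4 as a dotted line. Replicate 3 is lowest for endothelium, at 5.67, and highest for secretory epithelium, at 12.82.

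Few of the located genes differed between PMSG-treated ESR1KO and ESR1KO, and most that did were higher after PMSG. After adjustment, 2 probe sets were higher and 0 were lower (0.1% of the located probe sets called higher), namely Shisa3, which holds Wnt and FGF receptors back in the endoplasmic reticulum, and Gldc, the glycine decarboxylase of the mitochondrial glycine cleavage system. At the threshold of the study's methods (2-fold or more with an unadjusted p below 0.01, here from limma) 33 probe sets passed (1.65%). Of these 30 were higher (1.5%) and 3 were lower (0.15%). Since the located rows were listed for an overall difference that includes this contrast, the unadjusted calls are not independent of how the rows were found. At an unadjusted p under 0.05 the number was 347 (17.4%). Over all located probe sets the median log2 difference was 0.00.

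The size of the response was smaller than in WT. Of the located probe sets, 48 were at least 2-fold higher and 10 at least 2-fold lower in ESR1KO, against 146 and 178 in WT, whatever their p. The median absolute log2 difference was 0.20 in ESR1KO and 0.38 in WT.

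Shisa3 (probe set 1438884_at) gave 2.70, 2.35 and 2.25 in untreated ESR1KO and 5.12, 5.59 and 4.34 in PMSG-treated ESR1KO. It rose 5.99-fold (log2 difference 2.58, SE 0.25, limma adjusted p at most 0.0253). The groups did not overlap, and the signal in untreated oviducts was near background, where background correction compresses differences. In WT it was near background on all arrays, at 2.30 to 2.36 before and 2.21 to 2.30 after PMSG. The response differed between the genotypes (interaction 2.64 on the log2 scale, limma adjusted p at most 0.0481).

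Gldc (1416049_at) gave 4.18, 3.25 and 4.03 in untreated ESR1KO and 6.27, 6.10 and 6.73 after PMSG. It rose 5.86-fold (log2 difference 2.55, SE 0.26, limma adjusted p at most 0.0256), with no overlap of the groups, from a mean of 3.82 that is near background too, so that the fold is uncertain. In WT it stayed between 2.17 and 2.84 on every array of both groups. Its interaction, 2.72, missed the threshold at an adjusted p of at most 0.0514.

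Without ESR1KO replicate 2, neither gene was called after adjustment, although both differences remained large. That of Shisa3 was then 2.54 (adjusted p at most 0.131) and that of Gldc 2.27 (adjusted p at most 0.104). Leaving out 1 array at a time gave 0 to 6 adjusted calls. There were 6 without ESR1KO replicate 1, 1 without PMSG-treated ESR1KO replicate 2, and 0 without ESR1KO replicate 2 or 3, PMSG-treated ESR1KO replicate 1, WT replicate 2 or 3, or PMSG-treated WT replicate 1 or 2. Over all the alternatives that tested these genes the adjusted p ranged from 0.000306 to 1 for Shisa3 and from 0.00177 to 0.563 for Gldc, the value of 1 arising where signals under 4 were set to 4. The log2 difference of Shisa3 was then 1.015 and that of Gldc 2.30.

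**Figure D2:**
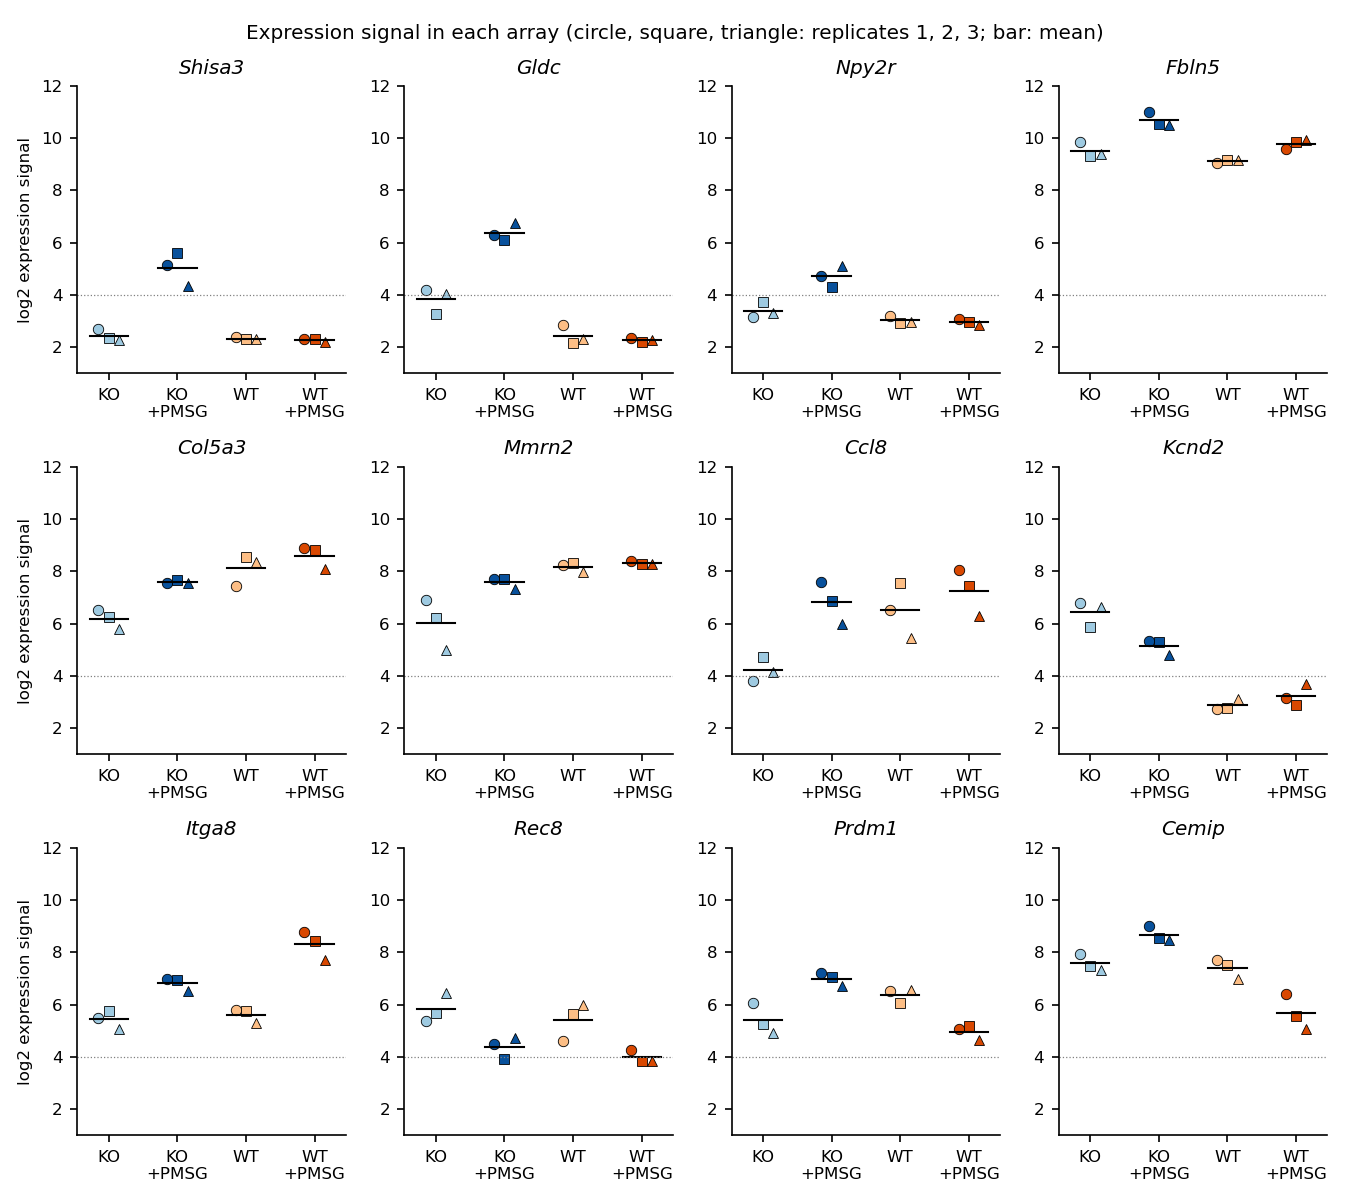
Log2 expression signal (y axis) of 12 genes in each array of the 4 groups (KO, ESR1KO; circle, square and triangle, replicates 1, 2 and 3; bar, mean; dotted line, near-background limit of 4). Shisa3 and Gldc sit at 4.34 to 6.73 in PMSG-treated ESR1KO and under 4.2 in every other group.

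The genes past the unadjusted threshold were described by role, starting with extracellular matrix and its receptors. Fbln5, a glycoprotein of elastic fibers, gave 9.84, 9.34 and 9.41 before and 11.02, 10.55 and 10.50 after PMSG (2.24-fold). Every treated array exceeded every untreated one. Col5a3, a fibrillar collagen chain, gave 6.53, 6.25 and 5.77 before and 7.55, 7.68 and 7.57 after, a 2.66-fold difference. The collagen-binding integrin Itga1 gave 5.01, 5.34 and 3.80 before and 6.00, 6.55 and 5.77 after. Itga8, the alpha subunit of the nephronectin receptor, gave 5.47, 5.76 and 5.06 before and 6.97, 6.94 and 6.52 after. These groups did not overlap either. A further 3 members were near the 2-fold limit or rested on weak signals: the metalloprotease Adamts8 (2.00-fold), Cemip, which takes part in hyaluronan degradation (2.13-fold), and a low-signal probe set of Col1a2 (1446326_at, 4.68, 5.12 and 3.44 before, 6.11, 5.82 and 5.96 after). Another Col1a2 probe set, readable in the untreated columns, had signals of 13.82 to 14.29, so that the located one does not stand for the gene's full level.

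Another 4 of these genes are known from the vessel wall. Mmrn2, an endothelial matrix protein, gave 6.91, 6.22 and 4.97 before PMSG and 7.71, 7.69 and 7.34 after it, a 2.92-fold difference. In WT it was higher, between 7.97 and 8.38 on all 6 arrays, so that PMSG-treated ESR1KO remained below WT. The same order held for Ptprb, the vascular endothelial protein tyrosine phosphatase, with 7.33, 7.11 and 6.26 before, 7.90, 8.02 and 7.87 after, and 8.34 to 8.80 in WT. Cd93, a transmembrane receptor of endothelial cells, gave 8.48, 8.03 and 6.70 before and 8.63, 9.26 and 9.13 after, a 2.42-fold difference. Myct1 gave 5.07, 4.57 and 3.80 before and 5.63, 5.35 and 5.69 after. In these 4 genes untreated replicate 3 was the lowest array, as it was for the endothelial marker list. Without it, the log2 difference was 1.01 for Mmrn2, 0.71 for Ptprb, 0.76 for Cd93 and 0.73 for Myct1, and only Mmrn2 stayed past the threshold. Of the 8 endothelial markers, 3 were located, and their summed linear signal was 256 to 484 in untreated ESR1KO, 607 to 739 after PMSG, 926 to 1244 in WT and 805 to 1008 in PMSG-treated WT. The part of the endothelial share of the tissue in these differences was not tested.

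The muscle and vessel transcription factor Mef2c gave 6.78, 6.76 and 5.87 before and 7.47, 7.71 and 7.77 after PMSG, without overlap. Replicate 3 was again the lowest, and the difference without it was 0.88 on the log2 scale. Pde2a, a cyclic nucleotide phosphodiesterase, gave 4.09, 3.01 and 3.35 before and 4.17, 5.48 and 4.82 after, a 2.53-fold difference.

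Of the genes past the threshold, 4 are known from macrophages or immunity, chosen by their role after the calls were known. Ccl8, a chemokine, showed the largest difference, 6.05-fold, with 3.81, 4.70 and 4.15 before and 7.60, 6.85 and 6.00 after PMSG. Its level after PMSG lay within the range of the WT arrays, 5.44 to 8.04. The probe set is also listed under another symbol by the study. Cd163, the hemoglobin scavenger receptor of macrophages, gave 8.83, 7.59 and 7.74 before and 9.66, 9.19 and 9.07 after, a 2.39-fold difference. Fcna, a ficolin of the lectin pathway of complement, gave 2.46, 2.40 and 2.95 before and 4.67, 4.26 and 3.14 after. Trbv1, a T cell receptor beta variable segment, gave 2.07-fold from a cross-hybridizing probe set listed under several symbols. Of the 8 macrophage markers 3 were located, all with positive differences (Mrc1 0.60, Csf1r 0.59 and Lyz2 0.63 on the log2 scale). Their summed linear signal was 3499 to 4301 before and 5309 to 7400 after PMSG, and the part of macrophage number in these differences was not tested. None of the located members of the macrophage list passed the threshold, which 1.65% of all located probe sets passed.

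A further 7 are best known from the nervous system, as receptors, ligands or membrane proteins, and were grouped by role after the calls were known. Npy2r, a receptor for neuropeptide Y, gave 3.14, 3.72 and 3.31 before and 4.74, 4.28 and 5.09 after PMSG, and 2.83 to 3.19 on all WT arrays. The neural cell adhesion molecule Chl1 gave 5.51, 4.59 and 4.48 before and 6.16, 6.12 and 6.22 after, against 3.14 to 3.79 in WT. The groups did not overlap for either gene. Mbp, myelin basic protein, gave 5.53, 4.98 and 4.40 before and 5.99, 7.25 and 6.98 after, a 3.41-fold difference. The metabotropic glutamate receptor Grm7 (2.14-fold), the GDNF-family receptor Gfra2 (2.13-fold), the GDNF-family ligand Artn (3.16-fold) and Stum (2.83-fold) passed with overlapping groups. In each of these 4 genes, untreated replicate 1 overlapped the treated arrays. Grm7 and Stum were near background in untreated ESR1KO, with means of 3.79 and 3.63, so that their folds are uncertain.

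The signaling and transcription genes that remained were Bmp5, Prdm1, Arhgap20 and Gng2. Bmp5, a ligand of the bone morphogenetic protein family, gave 4.31, 4.02 and 3.96 before and 5.25, 5.25 and 5.42 after PMSG. Prdm1, a transcriptional repressor that drives terminal differentiation of several cell types, gave 6.05, 5.25 and 4.90 before and 7.19, 7.04 and 6.73 after, a 3.01-fold difference. Arhgap20, a GTPase-activating protein, gave 6.81, 5.89 and 5.69 before and 7.48, 7.46 and 7.42 after. Gng2, a gamma subunit of heterotrimeric G proteins, gave 7.52, 6.57 and 6.68 before and 8.05, 8.19 and 7.86 after. None of these groups overlapped.

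At this threshold 3 genes were lower. Kcnd2, a voltage-gated potassium channel, gave 6.78, 5.88 and 6.64 before and 5.34, 5.30 and 4.78 after PMSG, a 2.45-fold difference. In WT it was near background, at 2.74 to 3.70, so that PMSG-treated ESR1KO remained above WT. Rec8, a meiotic cohesin subunit, gave 5.37, 5.68 and 6.44 before and 4.50, 3.91 and 4.71 after. Atp6v1c2, a subunit of the vacuolar proton pump, gave 4.13, 7.46 and 5.70 before and 3.18, 3.08 and 3.44 after. Its untreated arrays spread widely, with replicate 2 the highest and nearest to the untreated WT arrays (8.03 to 8.96). Without replicate 2 its log2 difference went from -2.53 to -1.68 and it no longer passed.

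Of the 30 higher genes, 26 had groups that did not overlap, as had all 3 lower genes. Among the located probe sets 14.6% were higher without overlap and 6.91% lower. Of the 33, 8 were near background in untreated ESR1KO, all of them among the higher genes. They were Shisa3, Gldc, Npy2r, Fcna, Trbv1, Pde2a, Stum and Grm7, and their folds are uncertain.

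Leaving out ESR1KO replicate 2 kept the direction of all 33 genes. Of these, 21 stayed past the threshold, 12 did not, and 16 others passed in its absence, giving 35 higher (1.75%) and 2 lower (0.1%), 1.85% in all. The differences of the 30 higher genes then ran from 0.85 to 2.84 on the log2 scale. The 12 that no longer passed included Cd163, Mbp, Gng2, Pde2a, Cemip and Artn. Leaving out replicate 1 kept all 33 and gave 64 higher and 20 lower, whereas leaving out replicate 3 kept 14 and gave 17 higher and 5 lower. The same 14 genes passed with any 1 of the 3 untreated arrays left out: Arhgap20, Bmp5, Ccl8, Chl1, Col5a3, Fbln5, Fcna, Gldc, Itga8, Kcnd2, Mmrn2, Npy2r, Prdm1 and Shisa3.

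Among the 16 genes that passed without replicate 2 but not with all arrays, Pecam1, an adhesion molecule of endothelial cells, gave 4.32, 6.35 and 4.06 in untreated ESR1KO, 6.14, 6.99 and 6.25 after PMSG and 7.44 to 8.54 in WT. Its log2 difference was 1.55 with replicate 2 and 2.27 without it. Mustn1, a nuclear protein of muscle and skeletal tissue, gave 6.27, 7.86 and 6.34 before and 7.43, 7.89 and 7.54 after. Emcn, an endothelial sialomucin, went from 0.94 to 1.19 and P2ry12, a purinergic receptor, from 1.00 to 1.02. Emcn also passed without replicate 1 (1.02) and P2ry12 without replicate 3 (1.04). P2ry12 was just under 2-fold with all arrays, with 2.54, 2.74 and 2.78 before and 3.63, 3.80 and 3.61 after PMSG.

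**Figure D3:**
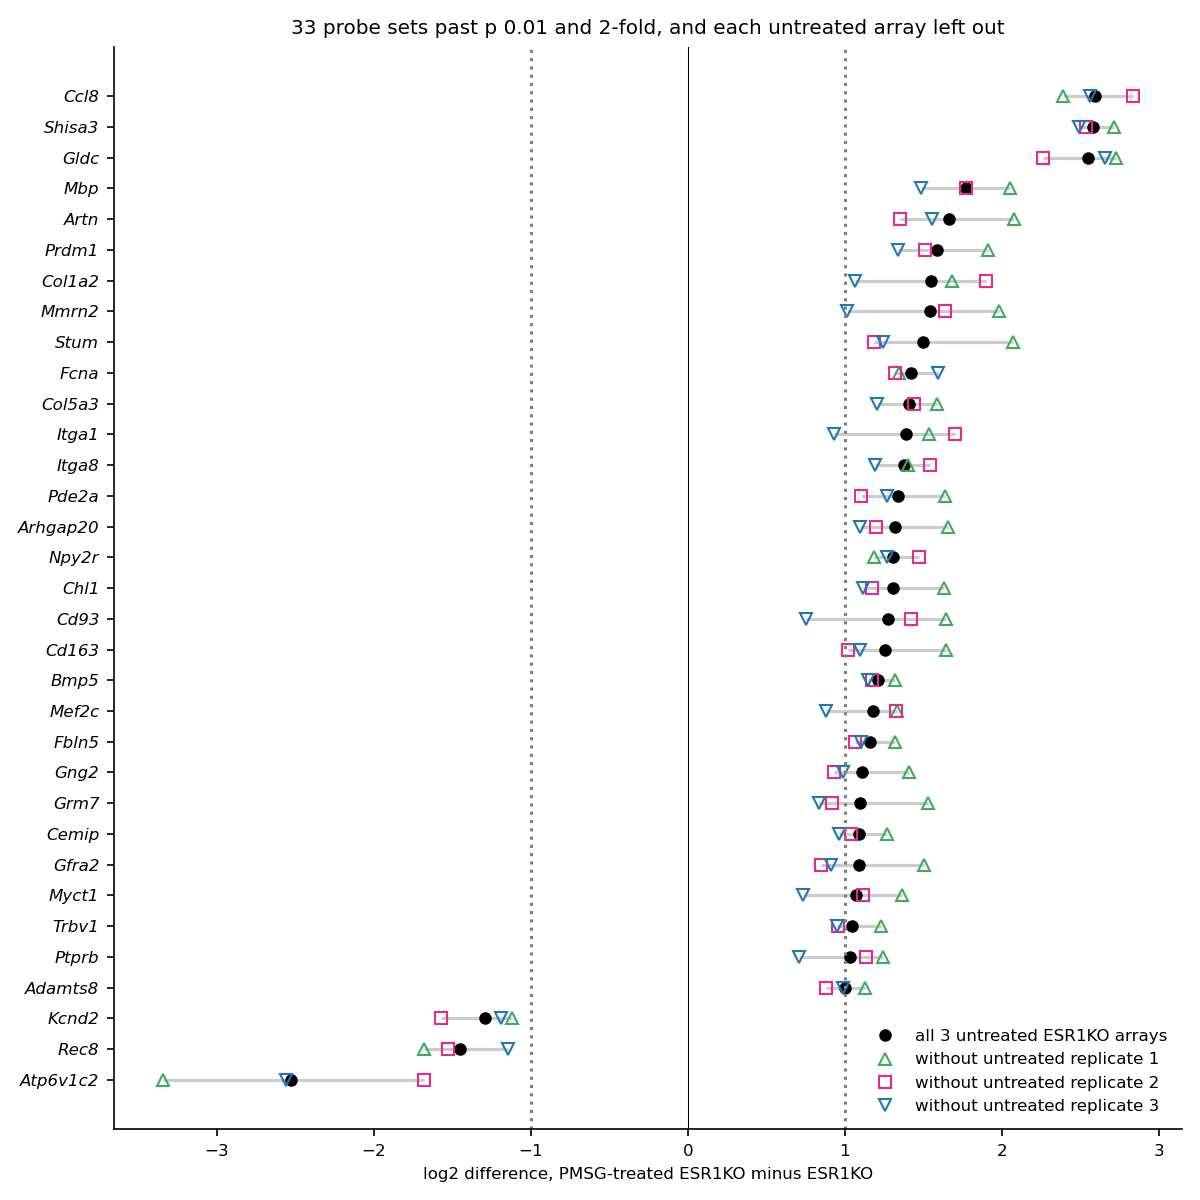
Log2 difference between PMSG-treated ESR1KO and ESR1KO (x axis) for the 33 genes past the unadjusted threshold, with all 3 untreated arrays (black) and with each untreated array left out (open symbols; dotted lines, 2-fold). No difference changed sign, and leaving out replicate 3 gave values under 1 for 11 of the higher genes, the lowest being Ptprb, Myct1 and Cd93.

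The changes were then set beside those in WT, measured on other arrays. PMSG-treated WT versus WT was fitted over all rows of the 9 columns of 1 order, where 80 probe sets were called higher (0.177%) and 33 lower (0.0732%). Leaving out 1 of the 9 arrays gave 41 (without WT replicate 2) to 346 calls in all (without PMSG-treated WT replicate 3). Among the located probe sets these were 54 higher (2.7%) and 22 lower (1.1%). Their median log2 difference was 2.10 and -1.81 in WT, but 0.07 and -0.20 in ESR1KO, and 0.05 and -0.21 in ESR1KO without replicate 2. They were chosen by their differences in the same WT arrays, so that a larger median in WT is in part built in. Of the 54, 37 had a positive difference in ESR1KO, 44 lay within 0.5 of 0 and 1 was at least 2-fold higher, with or without replicate 2. Of all 1997 located probe sets 50.7% had a positive difference in ESR1KO. Their median absolute difference was 0.20, and 48 were at least 2-fold higher. Of the 22 lower ones, 15 had a negative difference in ESR1KO and 0 were at least 2-fold lower, beside 10 of all 1997 located probe sets. These counts of 2-fold differences therefore do not set the genes called in WT apart from the other located genes. In both ESR1KO groups, 18 of the 54 and 4 of the 22 were near background.

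**Figure D4:**
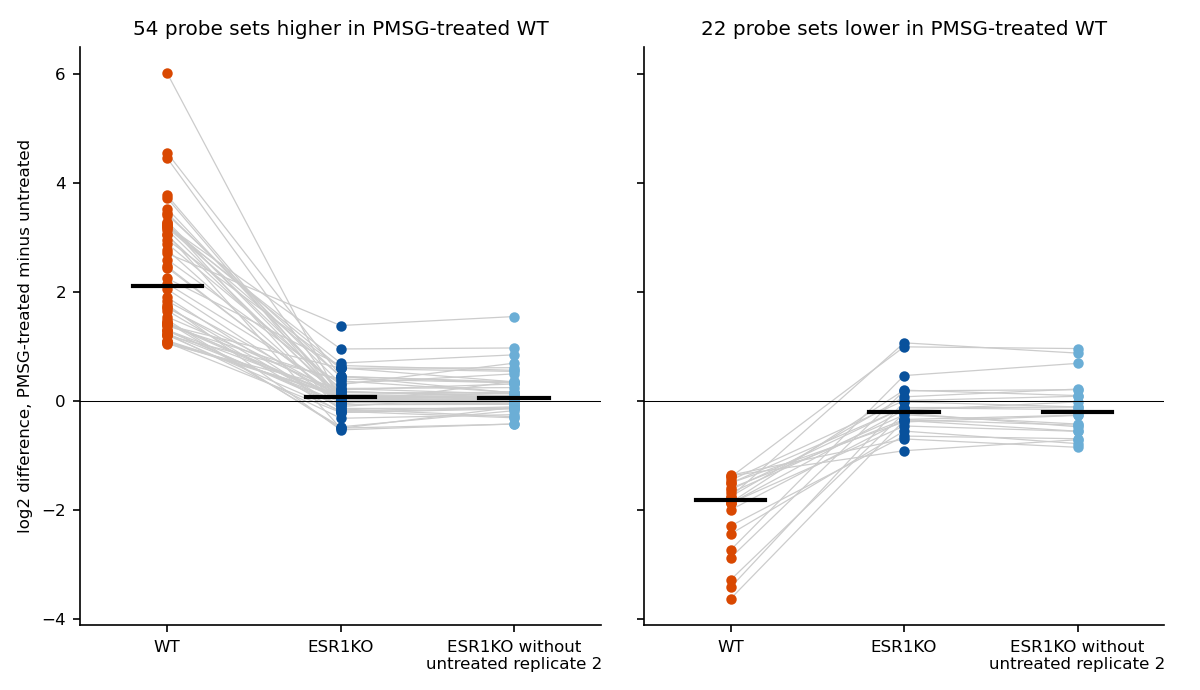
Log2 difference with PMSG (y axis) in WT, in ESR1KO and in ESR1KO without untreated replicate 2 for the located probe sets called in WT (left, 54 higher; right, 22 lower; grey lines join a probe set, black bars are medians). The medians of 2.10 and -1.81 in WT, from the values by which the probe sets were chosen, stand beside 0.07 and -0.20 in ESR1KO.

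Klk1b1, a member of the mouse kallikrein family, had the largest WT difference among the located genes. It gave 2.05, 1.97 and 2.01 in WT and 8.34, 8.18 and 7.52 in PMSG-treated WT. In ESR1KO it was at background throughout, with 2.13, 2.01 and 1.96 before and 2.11, 1.99 and 2.01 after PMSG. The difference was 6.00 in WT and 0.00 (SE 0.19) in ESR1KO, and the interaction was -6.00 (limma adjusted p at most 1.06e-05). Close kallikrein paralogs could share probes with it.

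Arg1, an arginase that splits arginine to ornithine and urea, was above background in both ESR1KO groups. In untreated WT it was near background, with a mean of 3.38, so that the size of its WT difference is uncertain. It gave 3.54, 3.03 and 3.56 in WT and 8.17, 8.15 and 7.15 in PMSG-treated WT. The ESR1KO arrays gave 5.24, 4.81 and 5.18 before and 5.50, 5.16 and 4.79 after PMSG, a log2 difference of 0.07 (SE 0.31). Its interaction was -4.38 (limma adjusted p at most 0.0136). Hsd11b2, which inactivates glucocorticoids, differed by 4.54 in WT and by 0.45 in ESR1KO, where it gave 8.57, 7.0 and 7.28 before and 7.90, 8.36 and 7.94 after PMSG. Its interaction, -4.09, missed the threshold (limma adjusted p at most 0.0733). Both genes were above background in ESR1KO before PMSG.

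The other genes among the 8 largest WT increases were Aqp8, a water channel (3.52 in WT, 0.15 in ESR1KO), Gria1, a glutamate receptor subunit (3.44 and 0.31), Padi2, a peptidylarginine deiminase (3.29 and 0.08), Asb4 (3.76 and 0.04) and the matrix protein Fbln2 (3.41 and 0.44). For Asb4 and Fbln2 a second untreated row also met the location limit. Among the largest WT decreases, Serpina1b, an alpha-1-antitrypsin paralog, gave 6.99, 6.50 and 7.21 in WT and 3.45, 3.73 and 2.62 after PMSG. In ESR1KO it gave 8.69, 8.02 and 8.54 before and 7.95, 8.06 and 8.14 after. Fgf18, a fibroblast growth factor, fell by 3.28 in WT and had a difference of -0.23 in ESR1KO. BC048679 gave -3.42 and -0.02, Ganc, a glucosidase, -2.88 and 0.18, Fzd10os -2.44 and -0.56, Akr1c19, an aldo-keto reductase, -2.0 and -0.35, and the proton pump subunit Atp6v1b1 -2.30 and -0.65. Kcnip1, which binds Kv4 channels including KCND2, gave -2.74 in WT and 0.46 in ESR1KO.

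**Figure D5:**
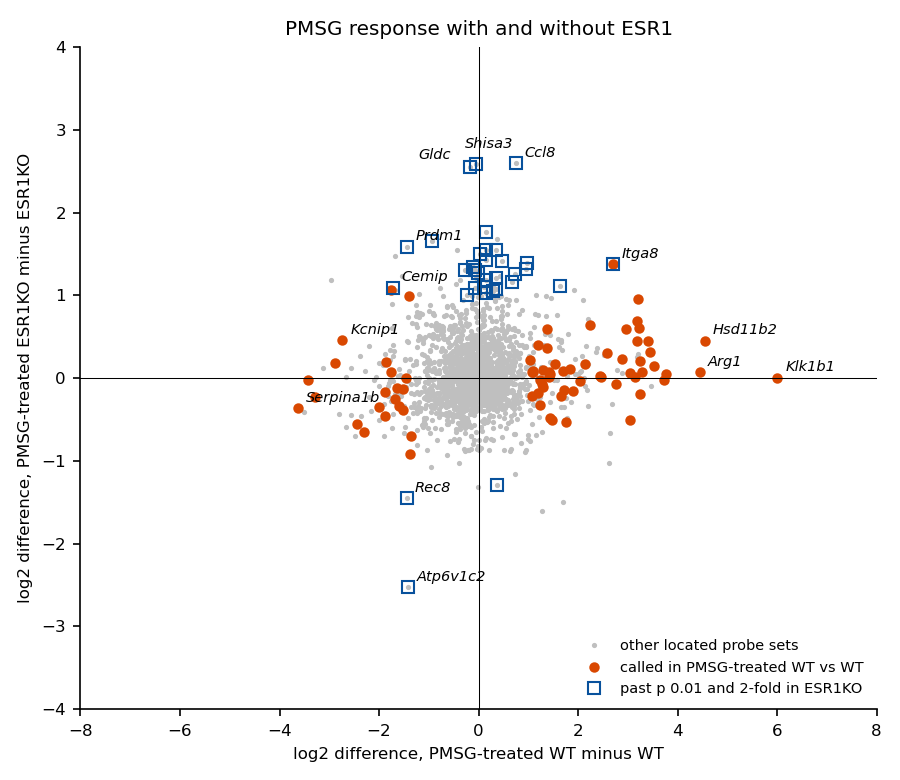
Log2 difference with PMSG in WT (x axis) against that in ESR1KO (y axis) for the 1997 located probe sets (orange, called in WT; blue squares, past the unadjusted threshold in ESR1KO). Genes with large WT differences such as Klk1b1, at 6.00, lie along the horizontal line, and Shisa3 and Gldc lie on the vertical line.

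Across the located probe sets, the log2 differences of the genotypes had a Pearson correlation of 0.0643, and 0.107 without replicate 2. This is a description across genes, which are not independent replicates, and the comparisons share no array. An unadjusted p under 0.01 in both genotypes was seen for 32 probe sets, of which 15 were higher in both, 5 lower in both and 12 higher in ESR1KO and lower in WT.

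Past the unadjusted threshold in both genotypes, 3 genes moved the same way. Itga8 was the one located gene called in WT that differed at least 2-fold in the same direction in ESR1KO. It gave 5.78, 5.76 and 5.28 in WT and 8.79, 8.42 and 7.71 in PMSG-treated WT. This difference of 2.70 on the log2 scale compares with 1.38 in ESR1KO and 1.54 without replicate 2. Its interaction of -1.32 did not pass after adjustment. Rec8 was lower in both, by 1.45 in ESR1KO and 1.44 in WT, where it gave 4.62, 5.65 and 5.99 before and 4.25, 3.84 and 3.84 after PMSG. Gng2 was higher in both, by 1.11 and 1.63. Without replicate 2 the ESR1KO values of Itga8, Rec8 and Gng2 were 1.54, -1.53 and 0.93, so that Gng2 no longer passed. Arhgap20, Itga1 and Fbln5, past the threshold in ESR1KO, were also higher in WT, by 0.95, 0.97 and 0.66. Each had an unadjusted limma p under 0.01 in WT but was under 2-fold there.

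The other two genes past the threshold in both genotypes had opposite signs. Prdm1 gave 6.52, 6.07 and 6.56 in WT and 5.05, 5.17 and 4.64 in PMSG-treated WT, a difference of -1.43, against 1.59 in ESR1KO. The interaction was 3.02, with an adjusted p of at most 0.0553. Cemip gave 7.69, 7.53 and 6.96 in WT and 6.39, 5.55 and 5.08 after PMSG, a difference of -1.72, against 1.09 in ESR1KO. Its interaction was 2.82 (adjusted p at most 0.126). For both genes neither pair of groups overlapped. Col13a1, a transmembrane collagen, was named after its values were seen. It was called lower in WT, by 1.76 on the log2 scale, and gave 8.87, 7.53 and 7.33 before and 8.67, 9.17 and 9.07 after PMSG in ESR1KO, a difference of 1.06 that did not pass.

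The interaction passed adjustment at 13 probe sets (0.651%; 0.451% with the lower and 0.2% with the higher difference in ESR1KO), 10 of which carried 1 symbol: Klk1b1, Arg1, Kcnma1, Oxtr, Pak3, Aqp8, Kcnip1, Serpina1b, Shisa3 and Cdc42ep3. Of these genes only Shisa3 was called in ESR1KO and not in WT. Kcnma1, a calcium-activated potassium channel, had a difference of 1.42 in WT and 0.07 in ESR1KO but remained near background in every group. Oxtr, the oxytocin receptor, gave 4.32, 5.01 and 5.02 in WT and 7.74, 7.68 and 8.33 after PMSG. In ESR1KO it was near background, at 2.72 to 2.82 on all 6 arrays, and a second untreated row met the location limit for it too. Pak3, a p21-activated kinase, had differences of 3.25 and 0.20. Cdc42ep3, an effector of CDC42, had differences of -0.86 in WT and 0.38 in ESR1KO. Without replicate 2, 4 interactions passed, those of Klk1b1, Arg1, Kcnma1 and Kcnip1. Leaving out other single arrays gave from 1 (without PMSG-treated ESR1KO replicate 2 or WT replicate 3) to 46 (without PMSG-treated WT replicate 3).

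Of the hormone receptors of interest, Esr1, Pgr and Gper1 were located, and none passed the threshold with PMSG in ESR1KO with all arrays. Pgr, the progesterone receptor, gave 11.18, 11.97 and 11.32 before and 11.10, 10.69 and 10.96 after, against 12.58 to 13.30 on the WT arrays of both groups. Its log2 difference was -0.58 with all arrays and -0.34 without replicate 2. Gper1, the membrane estrogen receptor, gave 6.00, 5.69 and 5.89 before and 5.81, 5.16 and 5.36 after. Esr1 differed by -0.77, by -0.31 without replicate 2 and by -1.16 without replicate 1, where it passed the unadjusted threshold. Esr2 was not located.

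Among the gene lists, extracellular matrix held the most located members with an unadjusted p under 0.01. Of 30 listed genes 22 were located, and 18 of these had a positive difference in ESR1KO, with a median of 0.51 on the log2 scale (0.48 without replicate 2), beside 0.00 over all located probe sets, 50.7% of which had a positive difference, and -0.32 for the same genes in WT. At an unadjusted p under 0.01, 4 were higher (Adamts8, Col1a2, Col5a1 and Mmp9) and 0 lower, where 5.76% of the located probe sets were higher and 0.801% lower. Col5a1 gave 11.21, 10.53 and 10.47 before and 11.52, 11.61 and 11.41 after PMSG. Its difference in WT was 0.81. Mmp9, a gelatinase, gave 0.88 in ESR1KO and -1.26 in WT. The summed linear signal of the 4 located stromal markers was 12003 to 20072 in untreated ESR1KO and 21189 to 24663 after PMSG, without overlap, and untreated replicate 3 was lowest for 6 of 8 stromal markers. The part of the stromal share of the tissue in these differences was not tested.

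Of the estrogen-responsive list 12 of 28 genes were located. The median difference was -0.08 in ESR1KO, 0.02 without replicate 2 and 0.62 in WT. In WT 5 were past the unadjusted threshold higher and 2 lower, where 6.76% of the located probe sets were higher and 7.61% lower. In ESR1KO 0 were past it, where 1.5% of the located probe sets were higher and 0.15% lower, so that 0 of 12 does not set this list apart. Ctsd, the lysosomal protease cathepsin D, was the member with the smallest p in ESR1KO, with 12.49, 12.04 and 12.66 before and 12.68, 13.08 and 13.16 after PMSG. It was 1.49-fold higher in ESR1KO and lower in WT, by 0.78 on the log2 scale. The kallikrein and serpin list, 7 of 19 located, had medians of -0.07 in ESR1KO and 2.77 in WT.

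The Wnt pathway list had 15 of 32 genes located, with a median of 0.20 (0.06 without replicate 2). Besides Shisa3, the secreted Wnt antagonist Sfrp1 had an unadjusted p under 0.01, with 10.59, 10.10 and 10.25 before and 11.42, 11.46 and 10.91 after PMSG (1.93-fold). The Wnt inhibitor Dkk2 gave 7.59, 6.59 and 6.37 before and 7.96, 7.66 and 7.86 after, a difference of 0.97 that did not pass. Of the amino acid and one-carbon list 10 of 32 were located, with a median of -0.16. Gldc was the member past the threshold, and Asl, the argininosuccinate lyase, was higher by 0.53.

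In the remaining functional lists 1 located member passed the threshold of p under 0.01 and 2-fold, Kcnd2 among ion and solute transport genes (8 of 28 located, median -0.30). Cytokines, chemokines and receptors had 23 of 28 located and a median of 0.04, and complement, acute phase and antimicrobial genes 13 of 25 and a median of 0.00. In the latter Nfkbia, an inhibitor of NF-kappaB, was 1.68-fold lower, with 6.64, 6.44 and 6.39 before and 5.81, 5.91 and 5.50 after PMSG. C1ra, a protease of the classical complement pathway, was 1.58-fold higher. Both had non-overlapping groups and were under 2-fold. The medians were 0.02 for retinoid and prostaglandin genes (14 of 25 located), -0.02 for glucose and lipid metabolism (12 of 29), -0.36 for steroid receptors and coregulators (7 of 15) and -0.27 for hypoxia, stress and immediate early genes (5 of 23). For the progesterone and androgen response (5 of 22) it was 0.22, for the glucocorticoid and circadian list (3 of 22) 0.49, for steroid-modifying enzymes (3 of 20) -0.23 and for the interferon response (3 of 16) 0.09. Of the cell cycle list 0 of 20 genes were located.

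Promoter sequences are given for 5 genes on which the comparisons turn: the 2 called after adjustment in ESR1KO (Shisa3, Gldc), a pair past the unadjusted threshold in the same direction in both genotypes (Itga8, Rec8) and the gene with the largest WT difference (Klk1b1). Each run holds the 250 bases before the annotated start, 5' to 3' on the strand of the gene, from RefSeq on GRCm38.p6. Capitals mark matches on either strand to AGGTCA, the core motif bound by ESR1, or to TGTTCT, the core motif of the progesterone, androgen and glucocorticoid receptors.
Shisa3 (chr5:67607633-67607882, plus strand): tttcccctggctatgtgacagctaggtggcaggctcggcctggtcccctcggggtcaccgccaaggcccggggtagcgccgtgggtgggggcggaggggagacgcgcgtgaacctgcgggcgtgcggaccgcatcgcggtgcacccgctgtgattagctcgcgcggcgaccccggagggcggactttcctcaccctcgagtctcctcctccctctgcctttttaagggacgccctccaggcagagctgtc
Gldc (chr19:30175442-30175691, minus strand): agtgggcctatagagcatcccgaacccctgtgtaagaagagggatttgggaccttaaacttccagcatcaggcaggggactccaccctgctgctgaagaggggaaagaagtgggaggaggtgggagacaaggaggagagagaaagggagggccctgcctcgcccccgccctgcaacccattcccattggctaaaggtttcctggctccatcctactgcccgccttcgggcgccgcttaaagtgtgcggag
Itga8 (chr2:12301945-12302194, minus strand): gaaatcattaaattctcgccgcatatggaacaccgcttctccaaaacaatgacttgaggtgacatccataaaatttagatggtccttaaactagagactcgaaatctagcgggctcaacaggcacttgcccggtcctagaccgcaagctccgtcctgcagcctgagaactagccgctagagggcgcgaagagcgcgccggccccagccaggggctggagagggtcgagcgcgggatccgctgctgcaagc
Rec8 (chr14:55617916-55618165, plus strand): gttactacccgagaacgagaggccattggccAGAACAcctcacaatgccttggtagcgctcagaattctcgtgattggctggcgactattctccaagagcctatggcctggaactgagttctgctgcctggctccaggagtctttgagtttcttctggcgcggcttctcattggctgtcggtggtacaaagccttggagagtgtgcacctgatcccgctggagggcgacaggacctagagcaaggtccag
Klk1b1 (chr7:43966501-43966750, plus strand): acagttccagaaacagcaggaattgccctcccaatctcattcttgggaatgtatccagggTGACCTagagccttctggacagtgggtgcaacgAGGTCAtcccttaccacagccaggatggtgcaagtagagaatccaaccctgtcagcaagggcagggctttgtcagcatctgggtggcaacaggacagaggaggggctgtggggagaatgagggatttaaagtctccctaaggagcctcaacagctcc
The full estrogen response element searched, a palindrome of GGTCA and TGACC with 3 bases between them, was in 0.0639% of all 32851 promoters of the RefSeq table and in 0 of these 5. The core motif AGGTCA was in 14.0% of all promoters and occurred 2 times before Klk1b1. TGTTCT was in 16.1% and occurred 1 time, before Rec8. TGACGTCA, a full cAMP response element, was in 1.55%, and in 0 of the 5. Of the 30 genes that were higher in PMSG-treated ESR1KO, 23 had an entry, with 31 promoters, of which 2, both of 1 gene, held AGGTCA (6.45%), 3 held TGTTCT (9.68%) and 0 held either full element. A match describes letters in this window and not binding.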

How the data were processed

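The deposited values are log2 expression signals that the authors made from Affymetrix Mouse Genome arrays by GC-RMA in Partek Genomics Suite 6.6, which corrects the background by probe GC content, equalizes the array distributions and summarizes probes by median polish. Background correction compresses weak signals, so that folds against a group near background are uncertain. Array medians ran from 5.63 to 5.75. There are no read counts, and the number of arrays, 3 per group, limits the precision.

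Rows of the 2 column blocks were joined through the fold changes and p-values of the study's supplementary gene table, held in part and used only as a row key. All 1997 rows were located, to within 8.76e-05 on the log2 scale and with recomputed p-values within 0.298%. A second untreated row met the 1% limit for 24 of them. The symbol of the located probe set, which was not used to find it, equalled the listed one for 1840 of 1847 rows with 1 symbol (99.6%), and for 1 after shuffling. On simulated data 500 of 500 rows were located. Gene symbols came from the platform annotation, updated to GRCm38.p6, and 34958 probe sets had 1 symbol, 932 several and 9211 none.

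Group means of the 12 arrays were fitted with limma 3.58.1 in R 4.3.3 (Python 3 for tables), with the trended prior variance of a fit over all rows of the 9 columns (prior degrees of freedom 2.87). Adjustment was by Benjamini-Hochberg as for tests of all rows of the table, so each adjusted p is an upper bound. Calls required an adjusted p under 0.05 and 2-fold, and interactions an adjusted p under 0.05. The threshold of the methods is an unadjusted p under 0.01 and 2-fold. In data simulated for PMSG-treated ESR1KO versus ESR1KO, 1997 of the simulated rows were located. Of 50 rows changed by 1.5 on the log2 scale 41 were called, and 42, 49 and 49 of 50 for changes of 2, 3 and 4, with 0 of 1797 unchanged rows called. The simulated spread came from the 9 columns, without the untreated ESR1KO arrays, and was equal in all groups. In the data the median within-group SD was 0.23 in untreated and 0.17 in PMSG-treated ESR1KO. The many large changes simulated also ease the adjustment. These shares therefore do not give the sensitivity in the data, where Ccl8, with a log2 difference of 2.60, was not called.

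Members, gene lists and tests were chosen with earlier results of these data known. Named genes were those past the methods' threshold, the 8 smallest p-values per direction without ESR1KO replicate 2, the 8 largest called WT differences per direction, called interactions, genes past the threshold in both genotypes, Esr1, Esr2, Pgr and Gper1, and up to 4 members per list. Tshr, Hpgds, Cyp26a1, Ccn1 and Fos in the untreated columns were chosen after their values were seen. No set test was run.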

Additional observations from a re-analysis of the deposited data

Results flagged for a closer look

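The response to PMSG differed between ESR1KO and WT, by the limma interaction term after adjustment, at 13 located probe sets. The value given is the log2 difference with PMSG in ESR1KO minus that in WT. It was negative, from increases in WT and differences of -0.20 to 0.45 in ESR1KO, for Klk1b1 (-6.00), Arg1 (-4.38), Aqp8 (-3.37), Oxtr (-3.12), Pak3 (-3.05), Kcnma1 (-1.35) and the probe sets 1418476_at (-3.45), 1441102_at (-2.73) and 1460185_at (-2.41), none of which is named here. It was positive for Serpina1b (3.27), Kcnip1 (3.20) and Cdc42ep3 (1.24), with negative differences in WT, and for Shisa3 (2.64), which rose in ESR1KO. Several of the first group were near background in both ESR1KO groups, where a further decrease could not be seen. Without ESR1KO replicate 2 the calls of Klk1b1, Arg1, Kcnma1 and Kcnip1 remained.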

How the results depend on the processing

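The 2 adjusted calls in PMSG-treated ESR1KO versus ESR1KO became 0 without a variance trend, with the unmoderated model of the methods, with only the 6 ESR1KO arrays and where the mean signal had to reach 4, which removes both genes by its construction, and 1 with signals under 4 set to 4. Leaving out 1 array gave 0 to 6. The 33 genes at the unadjusted threshold became 131 without the 2-fold minimum and 22 to 84 with 1 array left out. All 33 kept their direction under each of the 23 refits that tested them (26 of the 33 where the mean signal had to reach 4), and 11 passed in every refit that tested them. The 13 interactions became 1 with the unmoderated model, 7 with a mean signal of at least 4, 8 without rows with a second candidate and 1 to 46 with 1 array left out. The 113 calls in WT became 19 with the unmoderated model, 179 with a mean signal of at least 4, 51 with signals under 4 set to 4 and 41 to 346 with 1 array left out. Leaving out ESR1KO replicate 2 and PMSG-treated WT replicate 3 together, chosen after seeing the data, gave 0 adjusted calls, 30 interactions and 346 WT calls. The median ESR1KO difference of genes lower in WT, -0.20, became -0.46 with the unmoderated model, -0.11 with a mean signal of at least 4, -0.30 with quantile normalization within each block of columns, -0.0668 with signals under 4 set to 4 and -0.36 to -0.0627 with 1 array left out. That of genes higher in WT was 0.0464 to 0.22 with 1 array left out. Causes other than those given were not tested.

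The deviations of same-numbered ESR1KO arrays had correlations of -0.02 to 0.20, and 2 arrays correlated best with the array of their own number. So few arrays per group cannot show whether replicate numbers pair them. With a replicate block there were 2 adjusted calls, 32 genes at the unadjusted threshold, 9 interactions and 46 WT calls, and the medians were 0.15 and -0.35. Refitting all rows was not run, because the order of the 9 columns could not be recovered from the located rows, and the 6 ESR1KO arrays alone give no interaction.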
